A study of Arabidopsis thaliana with 6 samples.

Results

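Light capture in leaves depends on proteins that the nucleus encodes and the chloroplast assembles around its photosystems, and 37 of the 32678 genes in the count table were followed here because they code for these proteins. They were taken by their locus identifiers: 4 LHCA genes, 14 LHCB genes, 7 PSB genes and 12 PSA genes. Expression was measured by sequencing polyadenylated RNA from Arabidopsis thaliana leaves in 6 libraries, 3 from wild-type Col-0 and 3 from 35S:RPS4. The transgenic plants are Col-0 that carry the immune receptor gene RPS4 under the constitutive 35S promoter, with genotype Col-0 35S:RPS4-HS, and stand for 1 line. RPS4 is a receptor of the TIR-NBS-LRR class, whose signalling is held back in the warmth and released by a shift to a cooler temperature. All plants of both genotypes were grown at 28 °C for 3.5 weeks and shifted to 19 °C for 2 h before their leaves were frozen, so every library had received the temperature shift and the libraries differ by genotype.

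The photosystems are pigment complexes of the thylakoid membrane that turn light into electron flow. Photosystem II splits water, with the help of lumenal proteins such as those of the PSBO and PSBP type, and photosystem I passes electrons to ferredoxin at the PSAD and PSAE subunits. The LHCB proteins form the antenna of photosystem II, in which LHCB1, LHCB2 and LHCB3 make trimers and LHCB4 (CP29), LHCB5 (CP26) and LHCB6 (CP24) are single proteins between the trimers and the core, whereas the LHCA proteins form the antenna of photosystem I. In Arabidopsis leaves these genes are known to be driven by light, the circadian clock and the GLK transcription factors. The comparison of 35S:RPS4 with Col-0 asks whether their transcripts were altered 2 h after receptor release.

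No photosystem or antenna gene was called different between the genotypes, and the 37 transcripts, LHCB4.3 aside, were among the most abundant in these libraries. Calls were made with the edgeR quasi-likelihood test where the FDR (false discovery rate after Benjamini-Hochberg adjustment over all genes tested) was below 0.01 and the log2 fold change (log2FC, 35S:RPS4 minus Col-0) was above 1 or below -1. By this rule none of the 37 genes was called higher and none lower, where 6.46% of all 18382 genes tested were called higher and 1.37% lower. At an FDR below 0.05 with no fold threshold the counts were again 0 and 0, beside 10.5% and 6.26% of all genes, and at an unadjusted p below 0.05 LHCB4.3 alone passed, as a higher gene, beside 14.9% of all genes higher and 13.1% lower. All 37 genes had enough counts to be tested, so no member was lost to the filter on low counts. The median log2FC over the 37 genes was -0.0045, and it was 0.0055 over all genes tested. In bulk leaf RNA, fewer cells of a type and less RNA per cell cannot be told apart.

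**Figure D1:**
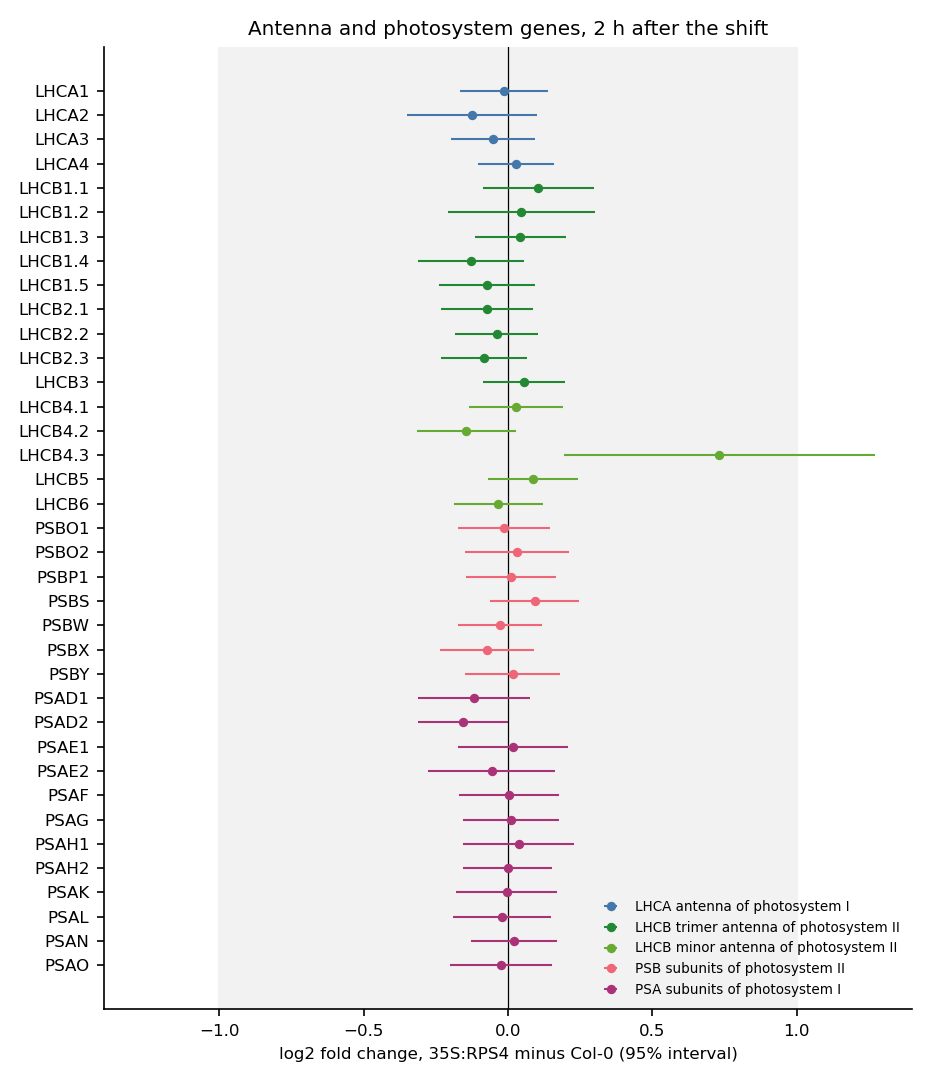
Log2 fold change of each of the 37 genes (points, coloured by protein group) with its 95% interval from the edgeR fit; the grey band marks changes smaller than 1 in either direction. Intervals of 36 genes lie inside the band, and that of LHCB4.3 runs from 0.20 to 1.27.

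The libraries behind these values were of similar depth, from 28659022 to 31007551 gene counts each. RPS4 itself stood at 21.2, 29.8 and 30.2 CPM (counts scaled to a common library size, here with TMM factors) in Col-0 replicates 1 to 3 and at 605, 759 and 907 CPM in 35S:RPS4, a log2FC of 4.81 (SE 0.22, FDR 3.25e-05 by edgeR), and these counts hold reads of the transgene and of the endogenous gene alike. Whether replicates came from separate plants is not stated in the labels, and p-values therefore reflect only how far these libraries vary. The leaf markers RBCS1A, RCA and CA1 summed to between 25055 and 29696 CPM in all libraries, and 5 root and flower markers summed to less than 1 CPM, with the root hair gene COBL9 at 0. Over 6 guard cell markers the summed level was 95.4 to 111 CPM in Col-0 against 114 to 117 CPM in 35S:RPS4, and over 5 epidermis markers it was 353 to 440 and 301 to 361 CPM. The part of these shifts in the values of the photosystem genes was not tested.

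Levels between genes were compared per transcript length, as RPKM, which divides the reads of a gene by the length of its longest annotated transcript in kilobases and by all gene counts of the library. In Col-0, 35 of the 37 genes were among the 100 most abundant of 27998 genes on this scale and 28 were among the first 50, with a median rank of 27. Libraries of polyadenylated RNA sample plastid transcripts poorly, and per coding length only the members were ranked. LHCB1.3, which codes for the main protein of the trimeric antenna, held rank 1 per transcript length. It stood at 18202, 16994 and 17308 RPKM in Col-0 replicates 1 to 3. Among the members it was followed by its relatives LHCB1.5 (9168 ± 557 RPKM, SD, n = 3) and LHCB1.2 (6273 ± 711 RPKM). The ranges of these 3 genes did not overlap in Col-0, so the gaps between them were larger than the spread between libraries.

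Next came a broad group without a firm order. LHCA4 (5404 ± 192 RPKM, SD, n = 3), LHCB1.1 (5143 ± 506 RPKM) and LHCB5 (5142 ± 272 RPKM) overlapped each other, as did most genes that followed. Of the 36 pairs of neighbours in the Col-0 order, 21 had overlapping ranges. The LHCA proteins, which surround photosystem I on one side, ran from 3504 ± 411 RPKM for LHCA2 to that of LHCA4, a narrow span beside that of the LHCB trimer genes. The 7 PSB genes ran from 1320 ± 79.3 RPKM for PSBO2 to 3551 ± 98.7 RPKM for PSBP1, which stabilises the water-splitting site. The 12 PSA genes ran from 790 ± 62.1 RPKM for PSAH1 to 4368 ± 63.8 RPKM for PSAO, a docking subunit for the mobile antenna. The place of PSAH1 depends on its long annotated transcript, which overlaps its neighbour, and per coding length it moved from rank 35 to rank 29 of the members.

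At the lower end of the order the gaps were wide. LHCB2.3, a copy of the second trimer protein, stood at 381 ± 2.89 RPKM (SD, n = 3) in Col-0. LHCB4.3, the third gene for CP29, stood at 21.2, 36.2 and 33.8 RPKM in Col-0 replicates 1 to 3 and held rank 3090 among 27998 genes. The most abundant member was thus 575 times as high per length as LHCB4.3 and 45.9 times as high as LHCB2.3. LHCB4.3 was the only member outside the highest 1% of genes. In 35S:RPS4 the order was nearly the same, with LHCB1.3, LHCB1.5 and LHCB1.2 first and LHCB2.3 and LHCB4.3 last.

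**Figure D2:**
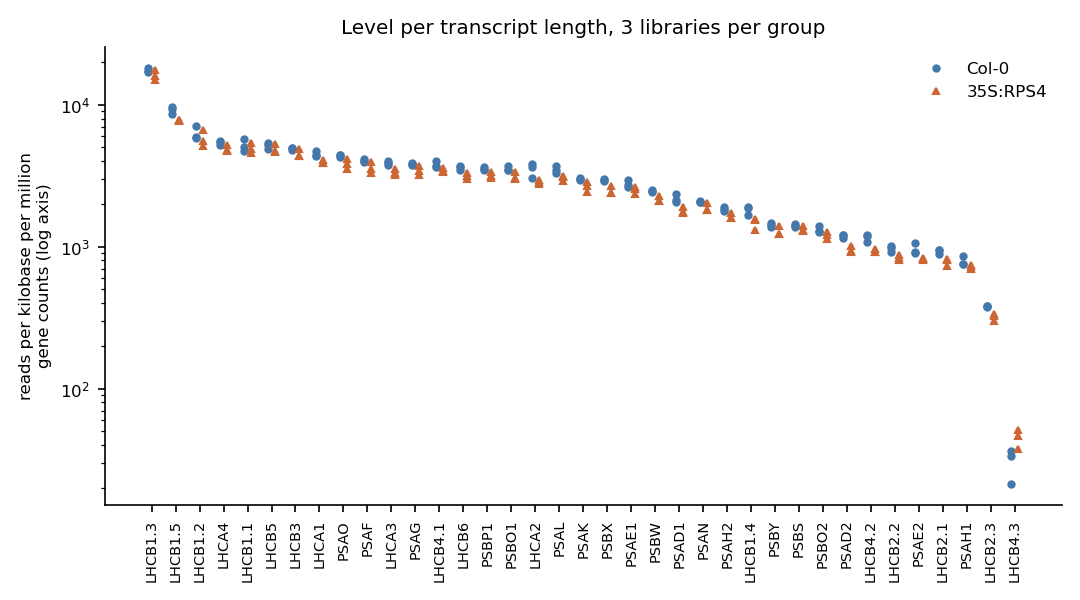
Level per transcript length (RPKM, log axis) of each of the 37 genes in every library, ordered by the Col-0 mean; circles are Col-0 and triangles 35S:RPS4. LHCB1.3 leads at 17501 in the Col-0 mean, and LHCB4.3 lies far below all others at 30.4; these levels are not TMM-scaled, and most triangles sit slightly below the circles.

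Within the trimer antenna, LHCB1 is made from 5 genes, of which LHCB1.1, LHCB1.2 and LHCB1.3 lie side by side on chromosome 1. The copies are so alike that reads from them may match more than 1 gene: coding identity was 95.65% between LHCB1.1 and LHCB1.2, 96.14% between LHCB1.1 and LHCB1.3, and 96.39% between LHCB1.2 and LHCB1.3. The first 90 coding bases show how few positions can tell them apart. Capitals mark bases that differ from LHCB1.3, and the stretches are given 5′ to 3′ in the coding direction from the TAIR10.1 genome (LHCB1.3, chr1:10478071-10478160, plus strand; LHCB1.1, chr1:10475803-10475892, minus strand; LHCB1.2, chr1:10473157-10473246, minus strand).
LHCB1.3: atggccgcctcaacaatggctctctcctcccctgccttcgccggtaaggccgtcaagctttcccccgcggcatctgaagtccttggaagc
LHCB1.1: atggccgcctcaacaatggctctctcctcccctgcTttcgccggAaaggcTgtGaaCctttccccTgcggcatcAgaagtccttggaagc
LHCB1.2: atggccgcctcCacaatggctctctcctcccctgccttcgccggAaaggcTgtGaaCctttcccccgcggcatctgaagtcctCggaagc
LHCB1.1 differed from LHCB1.3 at 7 of these 90 bases and at 31 of 804 over the coding sequence, and LHCB1.2 differed at 6 and 29.

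Reads with more than 1 alignment appeared as a separate summary entry and were outside the gene counts, so the copies are reported both singly and as a sum. Per transcript, 10.7 to 22.3% of the 50-base stretches of the LHCB1 genes also occurred in another gene, against 22.7% for LHCB2.1 and 28.2% for LHCB2.2. For 22 of the 37 genes no 50-base stretch was shared with any other gene. Of the remaining genes, some overlapped a neighbouring gene in the annotation, as PSAH1 and LHCB2.3 did. PSAH1 shared 49.2% of its 50-base stretches with AT3G16130, and LHCB2.3 shared 38.6% with AT3G27700. The values of these genes carry the uncertainty of reads that could be assigned to either gene.

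LHCB1.3 (AT1G29930) had 20902 CPM in Col-0 replicate 1, 20196 in replicate 2 and 19877 in replicate 3, and 22262, 19293 and 21222 CPM in 35S:RPS4. The groups overlapped, with the lowest and the highest value both in 35S:RPS4, and the log2FC was 0.04 (SE 0.07, FDR 0.757 by edgeR). LHCB1.1 (AT1G29920) had 6988, 5970 and 6171 CPM in Col-0 against 7370, 6703 and 6508 CPM in 35S:RPS4 (log2FC 0.11, SE 0.08, FDR 0.485), and the Col-0 library with the highest value lay above 2 of the 3 transgenic libraries. LHCB1.4 (AT2G34430) had 2348, 2104 and 2291 CPM in Col-0 against 2112, 2168 and 1891 CPM in 35S:RPS4 (log2FC -0.13, SE 0.08, FDR 0.355). These were the highest and the lowest log2FC of the 9 trimer genes, whose median was -0.04. Summed over the 5 copies, LHCB1 had 45243 ± 1269 CPM in Col-0 against 45929 ± 2745 CPM in 35S:RPS4 (SD, n = 3), a log2FC of 0.02 (SE 0.06, FDR 0.874 by edgeR).

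The shares of the copies were close in both genotypes. LHCB1.3 held 44.9 ± 0.133% (SD, n = 3) of the LHCB1 counts in Col-0 against 45.5 ± 0.753% in 35S:RPS4. LHCB1.1 held 14.1 ± 0.836% and 14.9 ± 0.711%, and LHCB1.4, the least abundant copy, held 4.97 ± 0.249% and 4.49 ± 0.473%. For the LHCB2 genes, which form trimers with LHCB1 and are phosphorylated in state transitions, the shares were 44.0 ± 1.29% and 43.7 ± 0.743% for LHCB2.1 and 18.8 ± 0.348% and 18.5 ± 0.190% for LHCB2.3. The differences in these shares were smaller than or about as large as the SD between libraries.

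LHCB2.3 (AT3G27690) was 1 of 3 members whose libraries were all lower in 35S:RPS4 than in Col-0, a pattern that 16.3% of all genes tested showed. It had 522, 535 and 525 CPM in Col-0 against 511, 504 and 478 CPM in 35S:RPS4, so the highest transgenic library was close to the lowest Col-0 library. Its log2FC was -0.08 (SE 0.06, FDR 0.464 by edgeR), and the sum of the 3 LHCB2 genes gave -0.06 (SE 0.06, FDR 0.567). LHCB3 (AT5G54270), the trimer protein that links the outer antenna to the core, had 5730 ± 35.2 CPM in Col-0 against 5954 ± 298 CPM in 35S:RPS4 (SD, n = 3), with overlapping groups. The groups also overlapped for LHCB1.2, LHCB1.5, LHCB2.1 and LHCB2.2, with 7239 ± 743, 9054 ± 687, 1233 ± 57.6 and 1043 ± 32.0 CPM in Col-0 against 7471 ± 902, 8615 ± 253, 1173 ± 42.9 and 1015 ± 21.2 CPM in 35S:RPS4.

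The minor antenna included the gene with the largest difference. CP29 is encoded by LHCB4.1, LHCB4.2 and LHCB4.3, the last of which is known in Arabidopsis as a gene of low expression in ordinary light. LHCB4.1 and LHCB4.2 shared 81.94% of their aligned coding bases, and LHCB4.3 shared 70.45% with LHCB4.1 and 73.02% with LHCB4.2. None of the 3 had a 50-base stretch in common with another gene. Their upstream stretches also differed. The 150 bases before each annotated transcript start are given 5′ to 3′ from TAIR10.1 in the direction of the gene, with matches to the searched motifs in capitals (LHCB4.1, chr5:208716-208865; LHCB4.2, chr3:2717407-2717556; LHCB4.3, chr2:16745478-16745627; all plus strand).
LHCB4.1: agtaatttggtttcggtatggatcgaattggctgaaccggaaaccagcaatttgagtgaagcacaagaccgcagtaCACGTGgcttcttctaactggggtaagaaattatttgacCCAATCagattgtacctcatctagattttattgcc
LHCB4.2: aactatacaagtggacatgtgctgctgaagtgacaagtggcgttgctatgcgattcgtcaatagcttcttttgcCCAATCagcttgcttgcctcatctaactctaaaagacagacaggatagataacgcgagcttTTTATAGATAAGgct
LHCB4.3: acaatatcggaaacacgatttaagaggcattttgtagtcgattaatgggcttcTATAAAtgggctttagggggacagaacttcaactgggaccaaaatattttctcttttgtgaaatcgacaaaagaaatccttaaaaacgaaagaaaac
In LHCB4.1 the capitals are a G-box (CACGTG) that begins 74 bases before the start and a GLK motif (CCAATC) that begins 35 bases before it. In LHCB4.2 they are a GLK motif at 76 bases, followed close to the start by a TATA box (TATAAA) on the other strand and an I-box (GATAAG), which adjoin each other. LHCB4.3 held 1 match, a TATA box that begins 97 bases before the start.

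LHCB4.3 (AT2G40100, TAIR10.1 chromosome 2, 16745628 to 16747424, plus strand) had 26.1, 46.2 and 41.7 CPM in Col-0 replicates 1 to 3 against 51.9, 64.2 and 73.6 CPM in 35S:RPS4. All transgenic libraries lay above all Col-0 libraries, as they did for 17.9% of all genes tested, and Col-0 replicate 1 was the lowest of the 6. The fold change was 1.66 with a 95% interval from 1.14 to 2.41 (log2FC 0.73, SE 0.23), and the FDR of 0.076 by edgeR missed both call rules. Its values also varied most within groups, with a coefficient of variation of 27.7% in Col-0 against 17.2% in 35S:RPS4, whereas that of the other 36 genes stayed between 0.614 and 12.4% in Col-0. Without Col-0 replicate 1 the log2FC was 0.51 (FDR 0.0581), the lowest of the values with 1 library left out, which reached 0.90 without Col-0 replicate 2. The FDR was 0.0012 with the replicate number as a block (log2FC 0.76), 0.0103 by DESeq2 (0.73) and 0.000658 without both replicate 1 libraries (0.63, a setting added after the data were seen), and over all settings tried it ran from 0.000658 to 0.217. At an FDR below 0.05 with no fold threshold it therefore passed as higher in these 3 fits and in none of the other settings. Of all genes, 13.4% passed as higher with the block and 11.4% by DESeq2. That share was not taken without both replicate 1 libraries. The fold threshold was not met by LHCB4.3 in any setting.

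**Figure D3:**
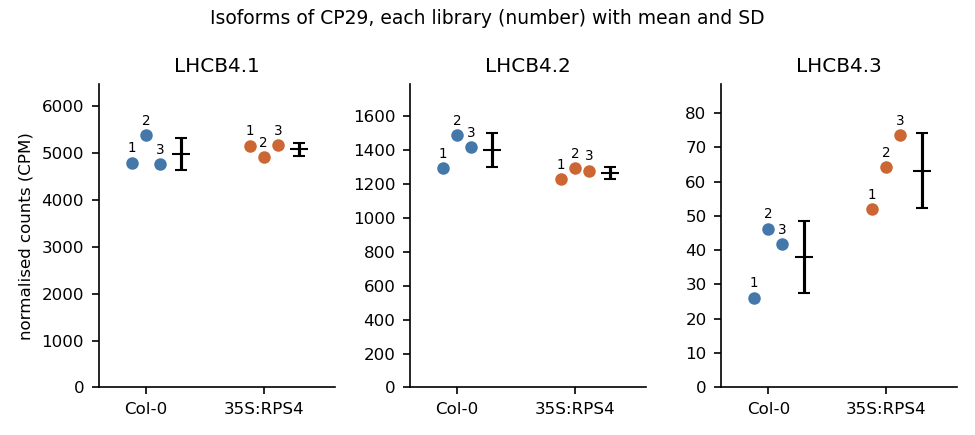
Normalised counts (CPM, axes from 0 and different for each gene) of the 3 genes for CP29 in each library (points, numbered by replicate), with the mean and SD of each group (bars, n = 3). LHCB4.3 is higher in every 35S:RPS4 library than in any Col-0 library, LHCB4.2 is slightly lower in every one, with the lowest Col-0 library almost level with the highest transgenic one, and LHCB4.1 overlaps.

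The main CP29 genes gave smaller differences. LHCB4.2 (AT3G08940) had 1294, 1490 and 1419 CPM in Col-0 against 1228, 1294 and 1279 CPM in 35S:RPS4, and the transgenic libraries were lower throughout by a narrow margin. Its log2FC was -0.15 (SE 0.07, FDR 0.256 by edgeR). LHCB4.1 (AT5G01530) had 4789, 5381 and 4764 CPM in Col-0 against 5148, 4911 and 5161 CPM in 35S:RPS4 (log2FC 0.03, SE 0.07, FDR 0.856), with overlapping groups. In both genotypes LHCB4.3 lay far below LHCB4.1 and LHCB4.2. LHCB5 (AT4G10340), which codes for CP26, had 7004, 6520 and 6700 CPM in Col-0 against 7604, 6736 and 7135 CPM in 35S:RPS4 (log2FC 0.09, SE 0.07, FDR 0.48). LHCB6 (AT1G15820), which codes for CP24, had 4107 ± 230 CPM in Col-0 against 4013 ± 125 CPM in 35S:RPS4 (SD, n = 3), and its groups overlapped.

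In the antenna of photosystem I all 4 genes had overlapping groups. Of all genes tested, 16.3% were lower and 17.9% higher in every 35S:RPS4 library than in any Col-0 library. LHCA4 (AT3G47470), which carries far-red chlorophylls, had 6589, 6499 and 6733 CPM in Col-0 against 6946, 6552 and 6694 CPM in 35S:RPS4. These values lay close together in both groups, and its SE of 0.06 was the smallest of all 18382 genes tested (log2FC 0.03, FDR 0.82 by edgeR). LHCA2 (AT3G61470) had 3993, 4983 and 5012 CPM in Col-0 against 4296, 4117 and 4415 CPM in 35S:RPS4, and Col-0 replicate 1 was the lowest of the 6 libraries while the other Col-0 libraries were the highest. Its log2FC was -0.12 (SE 0.10, FDR 0.477), and it was -0.23 (FDR 0.0867) without Col-0 replicate 1, against -0.072 and -0.071 when replicate 2 or replicate 3 of that group was left out. LHCA1 (AT3G54890; 5087 ± 308 CPM in Col-0, 5038 ± 99.0 CPM in 35S:RPS4, SD, n = 3) and LHCA3 (AT1G61520; 4925 ± 239 and 4751 ± 122 CPM) had similar means in both groups, and the median log2FC of the 4 genes was -0.03.

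In photosystem II, all 7 PSB genes had overlapping groups, beside 16.3% of all genes lower throughout and 17.9% higher throughout. The highest log2FC was that of PSBS (AT1G44575), the protein that switches on the quenching of excess light, with 1978, 2134 and 1957 CPM in Col-0 against 2203, 2076 and 2192 CPM in 35S:RPS4 (log2FC 0.09, SE 0.07, FDR 0.431 by edgeR). Of the 3 transgenic libraries, 2 were above all Col-0 libraries and replicate 2 was not. The lowest was that of PSBX (AT2G06520), a small membrane subunit, with 1939, 2077 and 1971 CPM in Col-0 against 2014, 1798 and 1878 CPM in 35S:RPS4 (log2FC -0.07, SE 0.07, FDR 0.569). PSBO1 and PSBO2, which code for the protein that shields the manganese cluster, held 75.3 ± 0.512% and 24.7 ± 0.512% (SD, n = 3) of their joint counts in Col-0 against 74.7 ± 0.604% and 25.3 ± 0.604% in 35S:RPS4. PSBP1, PSBW and PSBY had 4532 ± 217, 2234 ± 79.6 and 1630 ± 61.2 CPM in Col-0 against 4565 ± 209, 2191 ± 72.0 and 1649 ± 97.6 CPM in 35S:RPS4.

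In photosystem I, PSAD2 (AT1G03130) had the lowest log2FC of the whole set. PSAD is the docking site of ferredoxin, and PSAD2 had 1035, 1109 and 1084 CPM in Col-0 against 1001, 918 and 978 CPM in 35S:RPS4. The transgenic libraries were all below the Col-0 libraries, and the log2FC of -0.16 (SE 0.07, FDR 0.179 by edgeR) had an interval from -0.31 that ended at 0. The sum of PSAD1 and PSAD2 gave -0.13 (SE 0.07, FDR 0.315), and PSAD2 held 31.6 ± 1.55% of it in Col-0 against 30.9 ± 0.0101% in 35S:RPS4 (SD, n = 3). PSAH1 (AT3G16140), part of the site where the mobile antenna binds, had the highest log2FC of the 12 PSA genes, 0.04 (SE 0.08, FDR 0.836), with 913, 1082 and 917 CPM in Col-0 against 1004, 988 and 993 CPM in 35S:RPS4. The PSAE and PSAH genes gave sums with log2FC 0.002 (SE 0.08) and 0.02 (SE 0.07).

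The other PSA genes lay between these values. All of their groups overlapped, beside 16.3% of all genes lower throughout and 17.9% higher throughout. PSAF, which helps plastocyanin to dock, had 4592 ± 60.3 CPM in Col-0 against 4604 ± 380 CPM in 35S:RPS4 (SD, n = 3). PSAL and PSAO, which with PSAH receive the mobile antenna, had 3533 ± 281 and 3379 ± 99.7 CPM in Col-0 against 3482 ± 64.6 and 3325 ± 267 CPM in 35S:RPS4. PSAG and PSAK, which flank the core, had 2819 ± 84.6 and 2173 ± 60.7 CPM in Col-0 against 2840 ± 196 and 2167 ± 168 CPM in 35S:RPS4. In each of these genes the transgenic libraries spanned the Col-0 mean. PSAN, on the lumenal side, had 2000 ± 42.6 and 2029 ± 98.9 CPM. PSAD1, PSAE1, PSAE2 and PSAH2, whose partners or sums are given above, had 2340 ± 214, 2093 ± 162, 549 ± 63.8 and 1221 ± 52.5 CPM in Col-0 against 2156 ± 94.6, 2117 ± 132, 528 ± 20.8 and 1220 ± 40.3 CPM in 35S:RPS4. The median log2FC of the 12 PSA genes was -0.003.

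The intervals show what size of difference these libraries allow. Leaving LHCB4.3 aside, the 95% intervals of the other 36 genes ran from a log2FC of -0.35 at the lowest bound to 0.30 at the highest, or from 0.784-fold to 1.23-fold. Their fitted values did not exceed 0.16 in either direction, which is 1.11-fold, with 20 genes below 0 and 16 above, and their FDR ran from 0.179 to 0.992 by edgeR. Over all genes tested 48.0% had a log2FC of that size or smaller, and among 171 other genes of like abundance, those with a mean of at least 512 CPM, 71.3% did. The median SE was 0.07 for the 37 genes, 0.09 for the 171 and 0.13 for all genes. In the whole set 20 of 37 genes had a log2FC below 0, beside 49% of all genes.

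The sign of these small values depended on the scaling. With upper-quartile factors the median log2FC of all genes became -0.17 and with plain library size -0.16, and that of the 37 genes became -0.18 and -0.17, so that 36 of them lay below 0 under both. Relative to all genes the median of the set stayed at -0.01. No member was called under either scaling, but at an FDR below 0.05 with no fold threshold 5 were lower with upper-quartile factors (LHCB1.5, LHCB2.3, LHCB4.2, PSAD1 and PSAD2), beside 17.9% of all genes, and these 5 and LHCA3 were lower with plain library size, beside 16.3%. Their log2FC ran down to -0.34 for PSAD2 with upper-quartile factors. These 6 genes are named for their values in these settings. The LHCB2 and PSAD sums also passed as lower by edgeR, with FDRs of 0.0475 and 0.0328 with upper-quartile factors. With plain library size these were 0.0449 and 0.0229.

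The members' share of the library was also taken before any scaling. On that scale, the 37 genes held 14.7, 14.6 and 14.6% of all gene counts in Col-0 replicates 1 to 3 against 14.0, 12.6 and 12.7% in 35S:RPS4, so every transgenic library was lower. Over the same libraries the genes called higher in 35S:RPS4 held 1.59, 1.93 and 1.96% of gene counts in Col-0 against 8.32, 12.1 and 13.1% in 35S:RPS4. Those genes were chosen as higher in these same libraries, so the direction of their shares follows from the choice. Among the members, LHCB1 alone made 4.79% of the gene counts in Col-0. After TMM scaling the members summed to 137236, 141479 and 135852 CPM in Col-0 against 144700, 132042 and 138813 CPM in 35S:RPS4, and the groups overlapped with both extremes in 35S:RPS4.

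**Figure D4:**
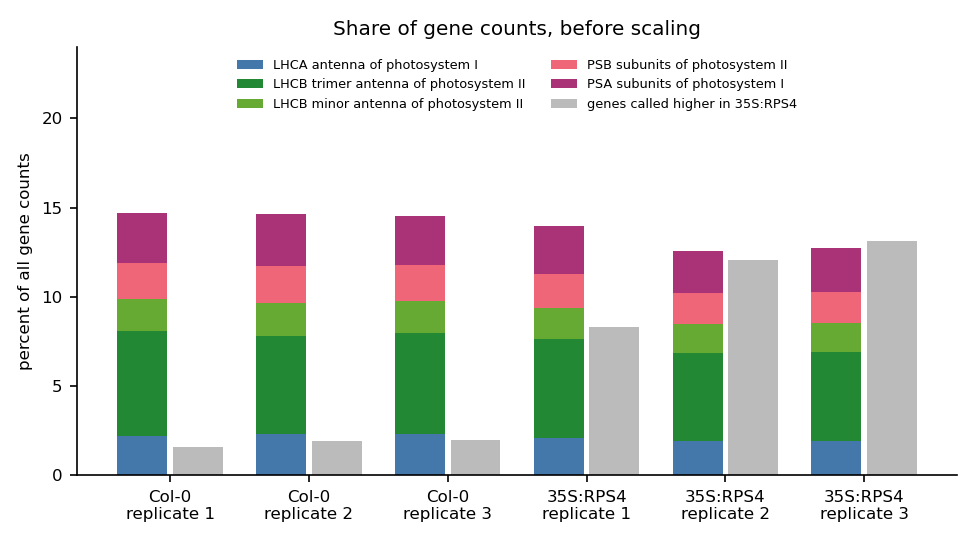
Share of all gene counts, before scaling, held by the 37 genes in each library (stacked bars by protein group, in percent) and by the genes called higher in 35S:RPS4 (grey bars). The stacked bars stand at 14.6 to 14.7% in Col-0 against 12.6 to 14.0% in 35S:RPS4. The grey bars stand at 1.59 to 1.96% and 8.32 to 13.1%, and their direction follows from the choice of genes in these same libraries.

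Libraries of 1 genotype also differed from each other in these genes. Relative to the Col-0 mean, the median of the 37 genes on the log2 CPM scale was -0.04, 0.06 and -0.02 in Col-0 replicates 1 to 3 against 0.05, -0.06 and 0.006 in 35S:RPS4. Col-0 replicate 2 and 35S:RPS4 replicate 1 were thus high, and 35S:RPS4 replicate 2 was low, with 32 of the 37 genes below the Col-0 mean. The medians of all genes stayed between -0.0006 and 0.013. The PSA genes moved most in 35S:RPS4 replicate 2, at -0.10, and the LHCB trimer genes lay within 0.01 of the Col-0 mean in every library except 35S:RPS4 replicates 2 and 3.

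**Figure D5:**
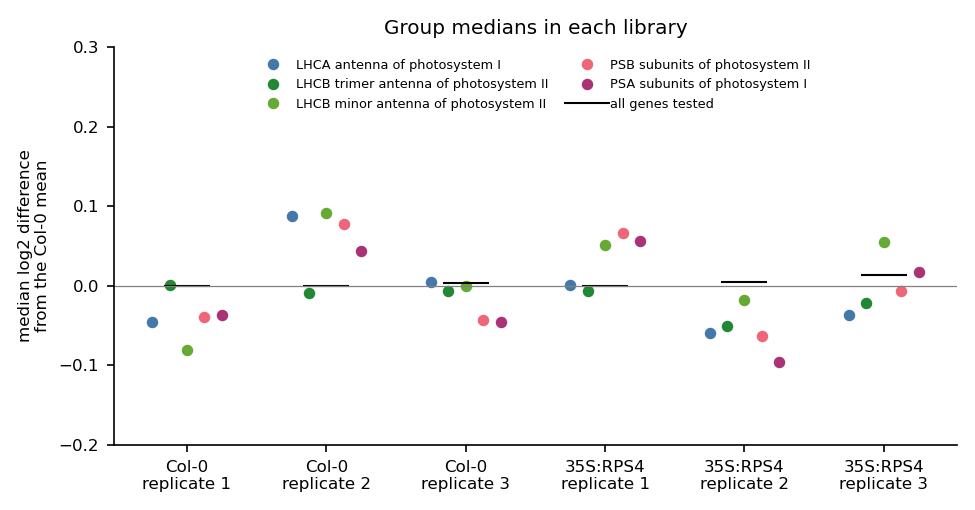
Median log2 difference from the Col-0 mean (normalised counts) of each protein group in each library (points), with the median of all genes tested (black lines). Most groups lie above 0 in Col-0 replicate 2 and 35S:RPS4 replicate 1, and all lie below 0 in 35S:RPS4 replicate 2, where the PSA genes are lowest at -0.10.

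Upstream sequence was not used in the choice of members. Motifs were sought on both strands in the 250 bases before the annotated start of each gene. The GLK motif CCAATC was found in 10 of the 37 genes (27.0%), beside 10.7% of 18137 tested genes, and all 10 were LHCA or LHCB genes. The G-box CACGTG was found in 6 genes (16.2%, beside 7.34%), the I-box GATAAG in 8 (21.6%, beside 12.5%) and the CCA1 site AAAAATCT in 5 (13.5%, beside 6.90%). The TATA box TATAAA occurred in 16 genes (43.2%, beside 45.3%), and the evening element AAAATATCT in none (beside 2.60%). These are matches of letters within a fixed window and were not tested against expression.

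The neighbouring genes LHCB1.3 and LHCB1.1 are transcribed away from each other, and their upstream stretches are also given. Their annotated starts lie at different distances from the coding sequence. The 2 stretches therefore do not cover matching positions, and how far the copies differ upstream was not tested. The 150 bases before each start follow from TAIR10.1 in the direction of the gene (LHCB1.3, chr1:10477735-10477884, plus strand; LHCB1.1, chr1:10475970-10476119, minus strand), with motif matches in capitals.
LHCB1.3: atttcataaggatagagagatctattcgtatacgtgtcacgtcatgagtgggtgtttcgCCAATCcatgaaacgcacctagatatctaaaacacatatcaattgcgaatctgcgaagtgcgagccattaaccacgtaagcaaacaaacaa
LHCB1.1: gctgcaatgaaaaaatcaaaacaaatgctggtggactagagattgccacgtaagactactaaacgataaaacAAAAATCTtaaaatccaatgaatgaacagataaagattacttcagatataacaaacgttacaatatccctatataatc
LHCB1.3 held a GLK motif that begins 91 bases before the start, and LHCB1.1 held a CCA1 site that begins 78 bases before it. Per transcript length, LHCB1.3 stood at 17501 ± 627 RPKM and LHCB1.1 at 5143 ± 506 RPKM in Col-0 (SD, n = 3).

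Other genes of photosynthesis were followed in 7 further lists with 64 genes, none of which was called in either direction. In the list of 9 other nuclear antenna and photosystem genes the log2FC ran from -0.11 for LHCB7, a rare antenna relative, to 0.08 for PSB28, an assembly factor. Among 10 genes for electron carriers and the ATP synthase it ran from -0.25 for PETE1, a plastocyanin gene, to 0.06 for PETC, the Rieske protein gene, and among 10 Calvin cycle genes from -0.09 for PRK to 0.11 for RBCS1A, which codes for the small subunit of Rubisco. The FDR of PETE1 by edgeR was 0.177, and it was 0.0358 with the replicate block, beside 9.89% of all genes lower below 0.05. It was 0.0492 without 35S:RPS4 replicate 1 and 0.423 without 35S:RPS4 replicate 2. With upper-quartile factors and plain library size it was 0.0347 and 0.0321, beside 17.9% and 16.3% of all genes lower below 0.05. The medians of these lists were -0.03, 0.005 and 0.04, close to that of the members. Of 6 plastid-encoded photosystem genes the lowest was PSBD (-0.40, FDR 0.276 by edgeR) and the highest PSAB (0.12, and -0.28 without 35S:RPS4 replicate 2), though libraries made from polyadenylated RNA sample plastid transcripts poorly. Without 35S:RPS4 replicate 2 the log2FC of PSBD was -0.64 (FDR 0.0423 by edgeR), without 35S:RPS4 replicate 1 it was -0.26 (FDR 0.48), and with the replicate block it was -0.42 (FDR 0.0046), where PSBC also passed an FDR below 0.05 as lower. Among 8 stress relatives of the antenna and genes of chlorophyll loss the values ran from -0.18 for NYC1, a chlorophyll b reductase gene, to 1.82 (SE 0.80, FDR 0.196 by edgeR) for ELIP2, an early light-induced relative, which had 1.44, 7.60 and 1.13 CPM in 35S:RPS4 and 0.573 to 1.46 CPM in Col-0. Its log2FC was 0.43 (FDR 0.633) without 35S:RPS4 replicate 2, the library with the high value, and its FDR by DESeq2 was 0.0414.

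Genes of chlorophyll synthesis and of antenna regulation included lower values than the members. The median log2FC was -0.004 for the chlorophyll synthesis genes and -0.17 for the genes of antenna regulation, import and quenching. Of the latter, 7 of 10 were below 0, beside 49% of all genes. Of 11 chlorophyll synthesis genes 2 were lower at an FDR below 0.05 with no fold threshold, and of 10 genes for antenna regulation, import and quenching 1 was, beside 6.26% of all genes tested. They were CAO, which makes the chlorophyll b that LHCB proteins bind, PORB, which makes chlorophyllide in the light, and GLK1, and they are named for their values. CAO had 84.1, 80.8 and 85.8 CPM in Col-0 against 68.5, 61.2 and 57.4 CPM in 35S:RPS4 (log2FC -0.42, SE 0.08, FDR 0.011 by edgeR), with no overlap. PORB had a log2FC of -0.27 (FDR 0.0382) and GLK1, an activator of antenna genes, of -0.30 (SE 0.08, FDR 0.0482), with 139 to 161 CPM in Col-0 against 116 to 124 CPM in 35S:RPS4. The lowest values of the lists were those of GUN4, a chlorophyll synthesis activator (-0.58, SE 0.19, FDR 0.098), and GLK2 (-0.49, SE 0.15, FDR 0.0655 by edgeR), and the highest those of HEMA1 (0.14), the entry enzyme of the pathway, and ALB3 (0.09), which inserts antenna proteins into the membrane.

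These 3 differences did not all pass when a library was left out. The FDR of CAO was 0.0546 without Col-0 replicate 3 and 0.0512 without 35S:RPS4 replicate 2, at log2FC of -0.40 and -0.41. For PORB it was 0.0999 and 0.147 without Col-0 replicates 1 and 3 and 0.129 and 0.107 without 35S:RPS4 replicates 2 and 3. CAO thus missed the threshold in 2 of 6 such fits and PORB in 4. For GLK1 the FDR was 0.137 and 0.0897 without Col-0 replicates 2 and 3 and 0.0933, 0.0919 and 0.17 without 35S:RPS4 replicates 1 to 3. In these fits the log2FC of PORB stayed between -0.29 and -0.23 and that of GLK1 between -0.33 and -0.22. With the replicate block the FDR was 0.0027 for CAO, 0.0129 for PORB and 0.00655 for GLK1, and by DESeq2 it was 0.000606, 0.0101 and 0.0238, so all 3 passed there. GUN4 and GLK2 passed an FDR below 0.05 as well in these fits, with 0.00215 and 0.00333 under the block and 0.0247 and 0.0191 by DESeq2, and in edgeR without 35S:RPS4 replicate 1 (0.0106 and 0.0434). The counts of lower genes were then 3 of 11 for chlorophyll synthesis and 2 of 10 for antenna regulation, import and quenching. They were the same with the block and by DESeq2, beside 9.89% and 7.52% of all genes. By edgeR with upper-quartile factors the FDR was 0.00402 for CAO, 0.00706 for PORB, 0.00654 for GLK1, 0.0347 for GUN4 and 0.0169 for GLK2. With plain library size it was 0.00423, 0.00683, 0.00578, 0.0381 and 0.0176 in that order. Under these scalings 17.9% and 16.3% of all genes were lower at an FDR below 0.05.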

How the data were processed

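Polyadenylated leaf RNA was sequenced from TruSeq RNA v2 libraries, a kit that does not mark strand. The deposited values were raw read counts per gene, which the authors left without normalization, with 1 column for each of the 6 libraries. The submitters' processing notes name TAIR10, FastQC 0.11.2, TopHat2 2.0.10 and HTSeq, with roles and settings not given in the sources used here. Summary entries that name no gene held 6.45 to 8.30% of all counts (5.08 to 6.97% were alignments that were not unique) and were set aside. All 37 genes matched TAIR10.1 (RefSeq), which gave positions, lengths and sequence.

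Differential expression was computed in R 4.3.3 by edgeR 4.0.16 (TMM factors, default filter on low counts, robust quasi-likelihood fit, genotype as the only term, two-sided), and P values were adjusted over 18382 genes by the Benjamini-Hochberg method. Intervals are at the 95% level. Alternatives were other scalings, no filter, DESeq2 1.42.0, limma voom 3.58.1, a replicate block, and each library left out in turn. Deviations from group means correlated at 0.47, 0.18 and 0.31 between libraries of the same number across genes, and at -0.38 to 0.19 between other numbers. The value for number 2 lay within the latter range. Whether the number marks a pairing is not stated in the labels. Replicates of a group differed by far more than sampling noise (chi-square 8.28 to 39.5 per gene). Scripts were tested on simulated data. Named are all 37 members, RPS4 and the lowest and highest gene of each further list. CAO, PORB, GLK1 and PSBC are named for their values. The members and lists were chosen with earlier results of these data known.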

Additional observations from a re-analysis of the deposited data

How the results depend on the processing

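By the rule of an FDR below 0.01 with a log2FC beyond 1 in either direction, no member was called under any setting tried: other scalings, no filter on low counts, DESeq2, limma voom, the replicate block, each library left out in turn, and both replicate 1 libraries left out (added after the data were seen). At an FDR below 0.05 with no fold threshold no member passed in edgeR with TMM factors and genotype as the only term. By that rule 5 were lower with upper-quartile factors, beside 17.9% of all genes, and 6 with plain library size, beside 16.3%. LHCB4.3 was higher by DESeq2 and with the replicate block, beside 11.4% and 13.4% of all genes. It was also higher without both replicate 1 libraries, where the share of all genes was not taken. The median log2FC of the 37 genes moved to -0.18 with upper-quartile factors and to -0.17 with plain library size, and it ran from -0.05 to 0.04 with 1 library left out. With the replicate block it was -0.007, and LHCB4.3 had a log2FC of 0.76 with an FDR of 0.0012 and stayed under the fold threshold. Values close to 0 changed sign with the 2 scalings that shift all genes. Under both, the number of members below 0 rose from 20 to 36. Only those genes and sums that were followed singly through the settings are listed here. With upper-quartile factors the log2FC became -0.15 for LHCA4, -0.073 for LHCB1.1, -0.14 for LHCB1.3, -0.15 for LHCB4.1, -0.092 for LHCB5, -0.086 for PSBS, -0.14 for PSAH1, -0.094 for PSB28, -0.12 for PETC, -0.070 for RBCS1A, -0.032 for HEMA1, -0.085 for ALB3 and -0.062 for PSAB, and -0.16, -0.18 and -0.16 for the LHCB1, PSAE and PSAH sums. With plain library size it was -0.14 for LHCA4, -0.060 for LHCB1.1, -0.12 for LHCB1.3, -0.14 for LHCB4.1, -0.079 for LHCB5, -0.073 for PSBS, -0.13 for PSAH1, -0.081 for PSB28, -0.10 for PETC, -0.057 for RBCS1A, -0.020 for HEMA1, -0.071 for ALB3 and -0.042 for PSAB, and -0.14, -0.16 and -0.15 for the sums. The PSAE sum was -0.0029 with the size factors of DESeq2, in edgeR and in DESeq2 itself. With 1 library left out, some ranges crossed 0 among the genes and sums followed singly. These were -0.0094 to 0.091 for LHCB4.1, -0.015 to 0.13 for PSAH1, -0.0064 to 0.046 for LHCA4 and -0.015 to 0.097 for LHCB1.3. For PSAB the range was -0.28 to 0.35. The sums gave -0.032 to 0.065 for LHCB1, -0.045 to 0.077 for PSAE, -0.023 to 0.067 for PSAH and -0.046 to 0.053 for PSBO. Over all 37 members, 11 lay below 0 without Col-0 replicate 2 and 30 without 35S:RPS4 replicate 1. More members thus changed sign than are listed. Per coding length in place of transcript length, the level of LHCB1.3 in Col-0 was 26774 RPKM and that of LHCB4.3 was 48.3 RPKM. The intervals rest on 3 libraries per group, from 1 line and 1 time point, and a difference smaller than these intervals was not detectable. Reads that matched several copies of the LHCB1 and LHCB2 genes were not counted, and their part in the values was not tested.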
